A study of Rattus norvegicus with 18 samples.

Results

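The genes described here are those for potassium channels, taken as every gene name on the array that begins with Kcn. There were 91 such names among 26583 on the array, and 68 of them were tested among 20837 genes in all. The names cover the pore-forming subunits of the channels and the auxiliary subunits that bind them. Each gene was read from its brightest probe, and a gene was tested if the scanner software had marked that probe as well above background throughout 1 or more groups of 3 arrays. Of the 68, 51 were well above background on all 18 arrays and 17 were not. Of the 23 names that were not tested, 12 were well above background on no array and 11 on some arrays. The RefSeq gene table matched 86 of the 91 names, 85 of them under the same symbol, and Kcne1l is listed there as Kcne5.

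The tissue was the whole adrenal gland of untreated rats of 3 inbred strains. WKY is the normotensive Wistar-Kyoto strain, SHR is the spontaneously hypertensive rat, and SHRSP is its stroke-prone relative. Glands were taken at 3 and at 6 weeks of age, and each strain at each age gave 3 arrays, labelled as biological replicates, which makes 6 groups. The labels do not say whether a sample was 1 animal or a pool, and they do not state the sex. WKY and the hypertensive strains differ at many loci, so a difference between strains is a difference between these inbred stocks.

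Potassium channels let potassium ions leave or enter cells and so set the membrane potential. In the adrenal cortex, two-pore-domain leak channels and inward rectifiers hold glomerulosa cells at a strongly negative potential, and aldosterone is secreted when that potential falls. In the chromaffin cells of the medulla, voltage-gated channels and calcium-activated channels of the BK and SK types shape action potentials and with them the release of catecholamines. BK channels open with calcium and voltage and are tuned by beta subunits, while modifier subunits such as those of the Kcng and Kcns families form no channels alone and alter the channels they join.

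Levels are given as log2 of the signal relative to the 75th percentile of the same array, so that 0 is the level of that percentile and negative values are dimmer. A level of 1 gene is not set against that of another, since probes differ in brightness. Differences are log2 differences between group means with their standard error (SE) from limma, each on 3 arrays a group, and adjusted p is Benjamini-Hochberg over all genes tested in that comparison. "Rose", "fell", "higher" and "lower" as calls refer to an adjusted p under 0.05. With bulk tissue, fewer cells of a type and less RNA per cell cannot be told apart. Comparisons with WKY at 1 age share the WKY arrays, and comparisons that use any group in common share its arrays.

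All 18 arrays passed 77.8 to 84.8% of spots as well above background, and the lowest correlation between arrays of 1 group was 0.987. All 16 genes of a list of steroid-making cortex cells and 29 of 32 genes of a chromaffin list were well above background on all 18 arrays. The arrays lay on 5 slides, and 1 slide with a scan day of its own held 4 arrays, all of them from rats aged 6 weeks. The third SHR array at 3 weeks had a summed signal of nerve and Schwann cell markers of 11.4, in units of the array's 75th percentile, where the other 17 arrays ranged from 2.95 to 5.32. The second SHR array at 3 weeks had a summed signal of liver markers of 159, where the others ranged from 9.41 to 38.6.

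Of the 68 genes, 42 were called in at least 1 of the 9 comparisons of 2 groups, which is 61.8%, against 63.0% of all genes tested. Called potassium channel genes were thus about as common as called genes in general, and the results below turn on which genes they were. A total of 121 calls was made over the 9 comparisons, and the arrays of both groups overlapped in 6 of them. With slide as a block, 16 of the 121 calls were lost and 0 changed sign. Of the 121, 70 passed in each of 18 fits that left out 1 array in turn. Where a named call rests on fewer, the number of those fits, or the arrays it needed, is given beside it.

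Against WKY, potassium channel genes were called higher more often than lower in both hypertensive strains and at both ages. In SHR at 3 weeks, 13 of 68 genes were higher and 1 was lower, where 9.02% of all genes tested were higher and 9.2% lower. In SHRSP at 3 weeks, 14 were higher and 4 lower, with 14.8% of all genes higher and 11.4% lower. At 6 weeks, 11 were higher and 4 lower in SHR, against 16.2% and 13% of all genes. In SHRSP at 6 weeks, 12 were higher and 5 lower, against 11.1% and 12.8% of all genes. As shares of the 68, the higher calls came to 19.1%, 20.6%, 16.2% and 17.6% in that order, and the lower calls to 1.47%, 5.88%, 5.88% and 7.35%. The share called higher was above that of all genes in 3 of these 4 comparisons and the same (16.2%) for SHR at 6 weeks, and the share called lower was below that of all genes in all 4. The higher calls include Kcnip2 in all 4, Kcnip3 in SHRSP at both ages and Kcnj11 in SHRSP at 3 weeks. The lower calls include Kcnq5l, in SHRSP at both ages and in SHR at 6 weeks. These genes passed the filter only through groups where they were high, so the shares are read no further. The medians of the 68 differences were 0.11, 0.25, 0.22 and 0.13, beside -0.01, 0.09, 0.09 and -0.01 over all genes. Among the 51 genes seen on every array, 11, 11, 10 and 9 were higher and 1, 3, 3 and 4 lower. The matching shares over all genes seen on every array are not given, so these counts are read no further. Chromaffin and steroid-making cortex markers were also called higher more often than lower over the same comparisons. Of 30 chromaffin genes tested, 11, 13, 15 and 13 were higher and 1, 1, 1 and 0 lower, and of 16 steroid-making cortex genes, 6 were higher in each and 1, 1, 1 and 2 lower. The median of the cortex genes in SHRSP at 6 weeks was nonetheless -0.06, beside -0.01 over all genes. Of 17 zona glomerulosa genes tested, 1, 4, 4 and 5 were higher and 1, 2, 2 and 3 lower. The part of any of these lists in the channel counts was not tested.

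SHR and SHRSP differed from each other in fewer of these genes. At 3 weeks, 1 gene was higher in SHRSP than in SHR and 5 were lower, beside 4.73% and 3.21% of all genes. The higher call was that of Kcnk2, and it was lost whichever SHR or SHRSP array of that age was left out. Among the lower calls, those of Kcng2, Kcnj8, Kcnk5 and Kcnq1 were each lost without 1 or another of those arrays. At 6 weeks, 2 were higher and 5 lower, beside 6.74% and 8.22%.

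With age, from 3 to 6 weeks, more genes were called as falling than as rising in all 3 strains. In WKY, 1 gene rose and 4 fell, where 5.15% of all genes rose and 7.16% fell. In SHR, 5 rose and 13 fell, against 15.1% and 14.1% of all genes. In SHRSP, 5 rose and 16 fell, against 10.5% and 18.5%. The share that fell was 19.1% of the 68 in SHR and 23.5% in SHRSP. Both were above the share of all genes, while the 5.88% in WKY was below it. The falls include Kcnip2 in WKY, Kcnq5l in SHR and SHRSP, and Kcnt2 in SHRSP. These genes passed the filter only through groups where they were high. Among the 51 genes seen on every array, 1, 5 and 4 rose and 2, 10 and 13 fell in WKY, SHR and SHRSP. The matching shares over all such genes are not given, so these shares are read no further. The medians of the 68 differences were -0.06 in WKY, 0.08 in SHR and -0.19 in SHRSP, beside 0.02, 0.08 and -0.09 over all genes. In SHR, 40 of the 68 differences lay above 0, so the downward lean there is one of the calls only. Markers of several cell types fell over the same comparisons, while other lists rose or were split. Adipose markers fell in 12 of 18 genes in SHR and 11 of 18 in SHRSP, with 0 in WKY. Smooth muscle and pericyte markers fell in 7 of 15 in SHR and in 2 each in SHRSP and WKY, and endothelial markers in 5 of 16 in SHR, 7 in SHRSP and 2 in WKY. Nerve and Schwann cell markers fell in 4 of 15 in SHR, 2 in SHRSP and 3 in WKY, and chromaffin markers in 6 of 30, 3 and 5. Nerve and Schwann cell markers also rose in 2 genes in SHR and 1 in SHRSP, and endothelial and chromaffin markers in 1 each in SHRSP. Macrophage and lymphocyte markers rose in 5 of 15 and fell in 2 in SHR, with 3 and 3 in SHRSP and 3 and 0 in WKY. Steroid-making cortex genes rose in 4 of 16 and fell in 1 in SHR, with 3 and 6 in SHRSP and 2 and 4 in WKY. Zona glomerulosa genes rose in 2 of 17 and fell in 5 in SHR, with 4 and 4 in SHRSP and 0 and 4 in WKY. Kidney markers rose in 5 of 15 and fell in 1 in SHR, with 3 and 1 in SHRSP and 3 and 0 in WKY. The part of any of these lists in the falls of channel genes was not tested.

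**Figure D1:**
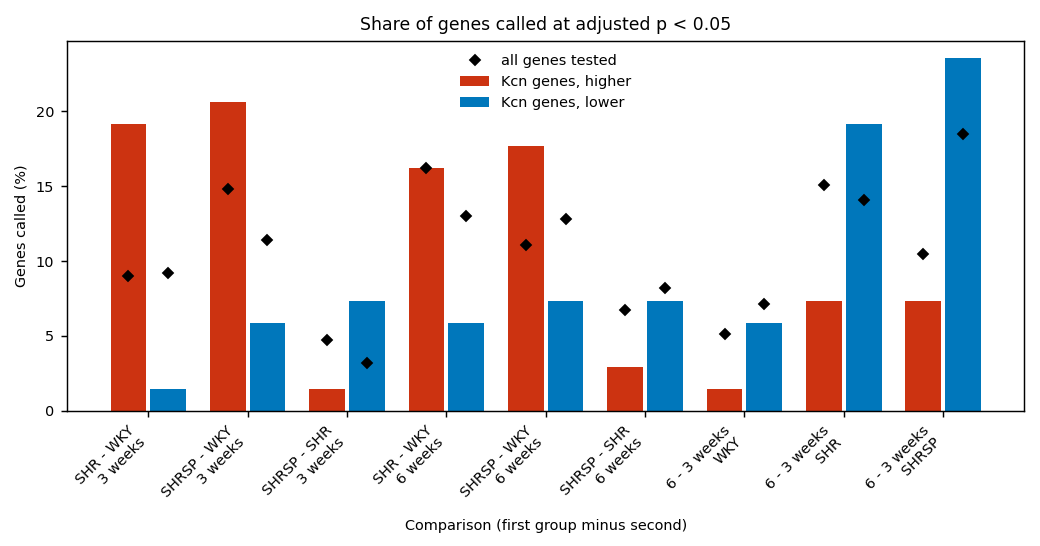
Percent of genes called higher (red) and lower (blue) among the 68 potassium channel genes in each of the 9 comparisons; black diamonds give the share of all genes tested in the same direction. The red bars exceed the blue ones in the 4 comparisons with WKY, and the blue bars exceed the red ones in the 3 comparisons of ages. The bars include dim genes that passed the filter only through groups where they were high.

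A group of 5 genes was higher in both hypertensive strains at both ages: Kcnt1, Kcnmb4, Kcnmb2, Kcnk2 and Kcnip2. That is 7.35% of the 68, where 3.07% of all genes tested were higher in all 4 comparisons. The number rests on single arrays: of the 5, 1 (Kcnmb2) kept all 4 calls without the second WKY array at 3 weeks, 2 without the third, 3 in each of 9 fits, 4 in 5 fits, and all 5 in the 2 fits without the second or the third WKY array at 6 weeks. Kcnmb2 kept its calls in each of the 18 fits. Kcnip2 was dim and passed the filter only through SHR and SHRSP at 3 weeks, where it was high, so that it counts for nothing here, while the other 4 were well above background on all 18 arrays. The 7.35% still includes Kcnip2, and also Kcnk2, whose other probes passed in none of the 4 comparisons, so that share is read no further. None of the 68 was lower in all 4, where 2.83% of all genes were. Of these 5, the BK beta subunits Kcnmb2 and Kcnmb4 and the sodium-activated pore subunit Kcnt1 belong to the calcium- or sodium-activated class, Kcnk2 is a two-pore-domain leak channel, and Kcnip2 is a calcium-binding auxiliary subunit.

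The probes behind these calls are shown because the reading rests on the transcript stretch they detect. Sequences are as deposited, 5′ to 3′ in the sense of the transcript, with positions on rn4. The brightest Kcnmb2 probe lies at chr2:118401316-118401375 on the plus strand and the other one at chr2:118382241-118382300. The Kcnt1 probe lies at chr3:4087970-4088029 on the plus strand. Capitals mark a stop codon at the end of a frame that has no other stop within the probe.

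Kcnmb2, brightest probe: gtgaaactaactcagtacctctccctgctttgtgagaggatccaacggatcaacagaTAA
Kcnmb2, other probe: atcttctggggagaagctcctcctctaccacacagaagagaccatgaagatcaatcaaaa
Kcnt1: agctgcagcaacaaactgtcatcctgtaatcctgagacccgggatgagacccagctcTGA

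The brightest Kcnmb2 probe and the Kcnt1 probe each end with such a stop codon, although the Kcnt1 probe also has a frame with no stop at all, and the other Kcnmb2 probe lies upstream of the first on the same strand.

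Two-pore-domain (Kcnk) genes make the leak channels. Of 13 names, 10 were tested and 8 were called in at least 1 comparison of 2 groups, where 63.0% of all genes were. Against WKY, 2 of the 10 were higher in SHR and 3 in SHRSP at 3 weeks, and 3 in each strain at 6 weeks, beside 9.02%, 14.8%, 16.2% and 11.1% of all genes. With 10 genes in a class, such counts describe these genes and are read no further, here and in the classes below. The lone lower call was Kcnk13 in SHRSP at 6 weeks, where the arrays overlapped. It was made in 12 of 18 fits without 1 array, and the other Kcnk13 probe gave 0.13 (SE 0.22) and did not pass. With age 3 fell in SHR and 4 in SHRSP, beside 14.1% and 18.5% of all genes, and none rose in any strain. The fall of Kcnk13 in SHRSP was called in 13 of 18 fits, and its other probe gave 0.53 without passing.

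Kcnk3, the acid-sensitive leak channel TASK-1 of the adrenal cortex, read 3.40, 3.38 and 3.57 in WKY at 3 weeks. SHR at that age read 3.64, 3.67 and 3.70, and SHRSP read 4.06, 4.07 and 4.21. All SHRSP arrays lay above all others of that age, and the difference from WKY was 0.67 (SE 0.16, adjusted p = 0.00553) for SHRSP and 0.22 (SE 0.16, adjusted p = 0.391) for SHR. At 6 weeks WKY was spread from 2.86 through 3.26 to 3.63. SHR read 3.79, 3.77 and 4.01, all above WKY, and was higher by 0.61 (SE 0.16, adjusted p = 0.00903). SHRSP read 3.81, 3.46 and 3.83 and overlapped WKY, with a difference of 0.45 at an adjusted p of 0.049, a call made in only 2 of the 18 fits that each left out 1 array. Kcnk9, the related TASK-3 subunit, passed in no comparison of strains. It fell in SHRSP with age at a difference of -0.50 (SE 0.15, adjusted p = 0.0175, in 15 of 18 fits), from -4.33, -3.95 and -4.21 to -4.31, -4.81 and -4.88, with overlap of 1 array.

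Kcnk2, the mechanically gated leak channel TREK-1, read -1.93, -2.11 and -2.12 in WKY at 3 weeks and -2.50, -2.18 and -2.31 at 6 weeks. In SHR it read -1.73, -1.70 and -1.77 at 3 weeks and -1.68, -1.64 and -1.62 at 6 weeks. SHRSP read -1.47, -1.42 and -1.40, then -1.58, -1.79 and -1.79. Every SHR and SHRSP array lay above every WKY array of its age. The differences from WKY were 0.32 (SE 0.09, adjusted p = 0.0188) in SHR and 0.63 (adjusted p = 0.00014) in SHRSP at 3 weeks. At 6 weeks they were 0.68 (adjusted p = 6.23e-05) and 0.61 (adjusted p = 0.00016). Without the second SHR array or the second or the third WKY array at 3 weeks, the SHR difference at that age was 0.29 to 0.31 and no longer passed.

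The result for Kcnk2 belongs to its brightest probe. That probe lies at chr13:105376012-105376071 on the minus strand of rn4, and the array design assigns it to a transcript record other than that of the gene's 2 further probes. The first of those, at chr13:105419270-105419329, differed from WKY by -0.09 and -0.11 at 3 weeks and by 0.31 and -0.27 at 6 weeks for SHR and SHRSP (SE 0.16). The last, at chr13:105377801-105377860, was well above background on 16 of 18 arrays and gave -0.88, -0.49, 1.22 and 0.25 with an SE of 0.90. Neither passed in any of the 4 comparisons. The former was lower in SHRSP than in SHR at 6 weeks at a difference of -0.58 (adjusted p = 0.0234), where the brightest gave -0.07. The probe at chr13:105419270-105419329 is shown since it reads a different stretch of the gene, with no stop codon in any frame.

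Kcnk2, other probe: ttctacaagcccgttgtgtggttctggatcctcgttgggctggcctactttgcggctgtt

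**Figure D2:**
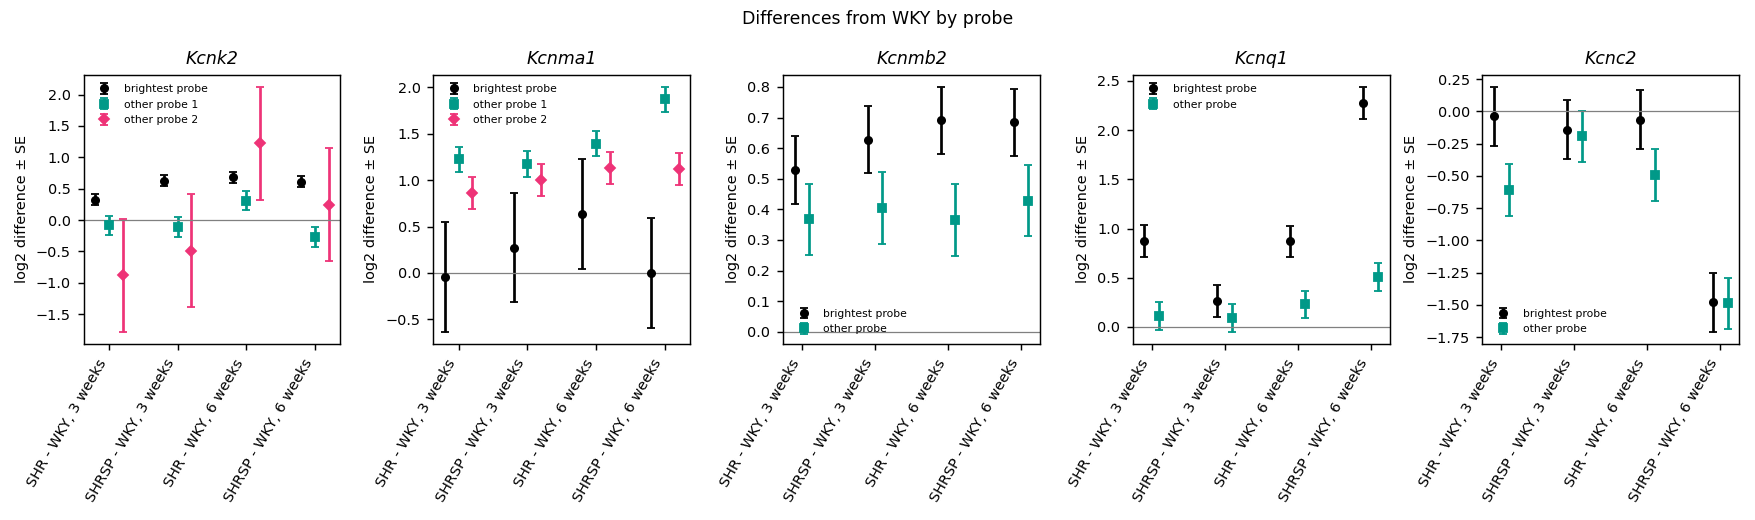
Log2 differences from WKY (points, with SE bars) for each probe of Kcnk2, Kcnma1, Kcnmb2, Kcnq1 and Kcnc2 in SHR and SHRSP at 3 and 6 weeks; black is the brightest probe and colours are the others. The Kcnmb2 probes and the other Kcnma1 probes all lie above 0, while the Kcnk2 probes fall on both sides of it.

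Kcnk12 forms no current alone and is known as a silent member of this family. It read -2.61, -2.12 and -2.07 in WKY at 6 weeks. SHR read -1.19, -1.37 and -1.60 and SHRSP -1.09, -1.48 and -0.73 at that age, all above WKY. The differences were 0.88 (SE 0.22, adjusted p = 0.00696) and 1.16 (SE 0.22, adjusted p = 0.0012). At 3 weeks WKY read -1.60, -1.42 and -1.89, within the range of SHR at -1.26, -1.51 and -1.99. SHRSP read -1.27, -1.29 and -1.38, just above WKY, and no strain difference passed at that age. Kcnk5, an alkaline-activated leak channel, was high in SHR at 3 weeks: 1.51, 0.95 and 1.11, against -0.53, -1.20 and -0.43 in WKY and -0.71, -0.73 and -0.25 in SHRSP. SHR exceeded WKY by 1.91 (SE 0.46, adjusted p = 0.00946), a 3.75-fold difference, and SHRSP minus SHR was -1.75 (adjusted p = 0.0309, in 12 of 18 fits without 1 array). At 6 weeks Kcnk5 spread widely within WKY, at -1.51, -0.38 and 0.74, and within SHR, at -0.58, -0.50 and 0.74. SHRSP read -0.95, -1.39 and -0.88, below every SHR array, and WKY overlapped both, with no strain difference called. The fall in SHR with age, -1.30, passed at 0.0465 as an adjusted p but in only 3 of 18 fits without 1 array, and not with slide as a block (adjusted p = 0.093).

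Kcnk1 was well above background on 14 arrays, and in SHR on all 3 at 3 weeks and on 1 of 3 at 6 weeks. It fell in SHR with age at a difference of -1.21 (SE 0.36, adjusted p = 0.0209), from -6.74, -6.01 and -5.04 to -7.84, -6.75 and -6.83. The third SHR array at 3 weeks was the highest, and without it the difference was -0.77 and did not pass. It also did not pass without the first SHR array at 6 weeks (-0.86). Kcnk6 fell with age in SHR at a difference of -0.65 (adjusted p = 0.00321) and in SHRSP at a difference of -0.52 (adjusted p = 0.0119, in 16 of 18 fits). Kcnk10 and Kcnk16 passed in no comparison.

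Inward rectifiers (Kcnj) carry potassium inward more easily than outward. Of 15 names, 10 were tested and 5 were called in at least 1 comparison of 2 groups (63.0% of all genes were), while the remaining 5 tested (Kcnj1, Kcnj12, Kcnj2, Kcnj3 and Kcnj9) passed in none. Kcnj5 and Kcnj3 form the G protein-gated channel that includes the subunit mutated in some aldosterone-producing adenomas. Neither passed in any of the 6 comparisons of strains. Kcnj5 fell in SHR with age at a difference of -0.62 (SE 0.14, adjusted p = 0.00539), from -4.18, -3.91 and -4.35 to -4.76, -4.93 and -4.60 with no overlap. Its values in WKY fell from -4.32, -4.38 and -4.50 to -4.71, -4.79 and -4.74, without passing (-0.35, adjusted p = 0.135), and the difference between the age changes of SHR and WKY did not pass (adjusted p = 0.51). Kcnj3 differed by -0.22 to 0.24 over the 9 comparisons (SE 0.26).

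Kcnj4 read -5.44, -5.79 and -5.55 in SHRSP at 6 weeks, above every array of the other groups whose spot was kept. WKY at that age read -6.87, -7.25 and -6.67. The difference was 1.33 (SE 0.22, adjusted p = 0.000598), and Kcnj4 rose in SHRSP with age by 1.21 (adjusted p = 0.00113). SHR at 6 weeks had 2 values, -6.22 and -6.95, since the third spot was marked as an outlier by the scanner software and dropped. With that spot kept, the difference of SHRSP from SHR turned from 0.99 (SE 0.25, adjusted p = 0.0147, in 16 of 18 fits) to -0.56.

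Kcnj14 was higher in both strains at 3 weeks, by 0.56 (adjusted p = 0.0188, in 15 of 18 fits) in SHR and 0.75 (adjusted p = 0.00208) in SHRSP, and fell with age in SHRSP at a difference of -0.53 (15 of 18 fits). Kcnj8, a pore subunit of ATP-sensitive channels in vessels, fell in SHR with age from 1.24, 1.43 and 1.10 to 0.68, 0.64 and 0.70, a difference of -0.59 (adjusted p = 0.0196, in 16 of 18 fits), but with slide as a block the adjusted p was 0.086. Kcnj11, the ATP-sensitive pore subunit of secretory cells, was dim, on 9 of 18 arrays well above background. It passed the filter only through SHRSP at 3 weeks, with 1 of 3 WKY arrays above background at that age, so its difference between these groups, 0.66 (adjusted p = 0.0483), supports no call. It was also lost with slide as a block (adjusted p = 0.12) and made in 8 of 18 fits without 1 array.

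Of the 11 names for calcium- or sodium-activated channels, 10 were tested and 5 were called, where 63.0% of all genes were called. The calls against WKY were upward: 3 in SHR and 3 in SHRSP at 3 weeks, and 3 in SHR and 4 in SHRSP at 6 weeks, where 9.02%, 14.8%, 16.2% and 11.1% of all genes were higher and 9.2%, 11.4%, 13% and 12.8% lower. Chromaffin markers, counted above, were also called higher far more often than lower. Their summed signal ran from 118 to 119 in WKY at 3 weeks, from 144 to 173 in SHR and from 166 to 187 in SHRSP. At 6 weeks it was 90.7 to 99.1 in WKY, 149 to 173 in SHR and 143 to 178 in SHRSP. The part of the chromaffin signal in the channel results was not tested.

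Kcnmb2 codes for a BK beta subunit that inactivates the channel. It read -1.94, -2.13 and -2.13 in WKY at 3 weeks, -1.53, -1.47 and -1.63 in SHR, and -1.48, -1.37 and -1.48 in SHRSP. At 6 weeks WKY read -2.08, -1.67 and -2.05, SHR read -1.35, -1.29 and -1.09, and SHRSP read -1.16, -1.34 and -1.25. No WKY array reached an SHR or SHRSP array of its age. The differences were 0.53 (SE 0.11, adjusted p = 0.00379) and 0.63 (adjusted p = 0.000757) at 3 weeks, and 0.69 (adjusted p = 0.000348) and 0.68 (adjusted p = 0.000383) at 6 weeks. The other probe gave 0.37, 0.40, 0.37 and 0.43 in the same order (SE 0.12) and passed in all 4. All 4 calls of the brightest probe also passed in each of the 18 fits without 1 array and with slide as a block, and no age difference passed.

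Kcnmb4, the beta subunit common in neurons, read -2.28, -1.89 and -1.60 in WKY at 3 weeks. SHR read -1.56, -1.43 and -0.27, and SHRSP -0.86, -0.98 and -0.89. At 6 weeks it read -2.74, -2.56 and -2.23 in WKY, -1.23, -1.30 and -1.23 in SHR, and -1.37, -1.71 and -1.47 in SHRSP. Every array of the hypertensive strains lay above WKY of its age, and the differences at 6 weeks were 1.25 (SE 0.27, adjusted p = 0.00283) in SHR and 0.99 (adjusted p = 0.0134) in SHRSP. At 3 weeks they were 0.84 (adjusted p = 0.041) and 1.01 (adjusted p = 0.0111). The third SHR array at 3 weeks, the high one, is the one with the high nerve markers, and without it the SHR difference at that age was 0.43 and did not pass. In all, that call was made in 9 of 18 fits without 1 array. Without the first WKY array at 3 weeks neither 3-week difference passed (0.66 and 0.83). Without the first SHRSP or first WKY array at 6 weeks, the SHRSP difference was 0.92 or 0.88 and did not pass.

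Kcnt1, the sodium-activated channel Slack, showed the largest called differences from WKY in this class when each gene was read from its brightest probe. It read -5.91, -6.47 and -6.79 in WKY at 3 weeks, -5.24, -5.60 and -5.58 in SHR, and -5.52, -5.11 and -5.00 in SHRSP. At 6 weeks WKY was at -6.06, -6.27 and -6.14, SHR at -4.15, -4.98 and -4.54, and SHRSP at -4.24, -4.73 and -4.43. The strains separated from WKY at both ages. The differences were 0.92 (SE 0.23, adjusted p = 0.0138) and 1.18 (adjusted p = 0.00198) at 3 weeks. At 6 weeks they were 1.60 (adjusted p = 0.000192) and 1.69 (adjusted p = 0.00012), which is 3.02-fold and 3.22-fold. Kcnt1 also rose with age in SHR by 0.91 (adjusted p = 0.0101) and in SHRSP by 0.74 (adjusted p = 0.0284), while in WKY the values at both ages overlapped. Without the first SHR array or the second or the third WKY array at 3 weeks, the SHR difference at that age was 0.72 to 0.88 and did not pass. In SHRSP, leaving out the first or second array at 3 weeks, or the first or the third at 6 weeks, ended the call of a rise with age (0.59 to 0.79).

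Kcnt2, the related channel Slick, was dim, on 8 arrays well above background. In SHRSP it read -6.94, -6.77 and -7.00 at 3 weeks and -8.15, -7.78 and -7.66 at 6 weeks, the latter below the background mark on every array. That is a fall of at least 1.93-fold (adjusted p = 0.0102). Kcnt2 passed the filter only through SHR and SHRSP at 3 weeks, where it was high, so the fall is given as a value and supports nothing. Kcnn2, an SK channel of chromaffin cells, was higher in SHRSP than in WKY at 6 weeks by 0.63 (SE 0.20, adjusted p = 0.0323), at -0.95, -1.44 and -0.69 against -1.89, -1.54 and -1.55, a call made in 15 of 18 fits. The SK gene Kcnn3 passed in no comparison. The intermediate-conductance gene Kcnn4 did not pass by its brightest probe, while a dimmer one on 17 arrays gave 0.51 for SHR against WKY at 6 weeks (adjusted p = 0.0331) and 0.48 with age in SHR (adjusted p = 0.0445). The BK beta subunit Kcnmb1 was well above background on 8 arrays and was not tested.

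Kcnma1 codes for the BK pore itself, and its 3 probes, all well above background on the 18 arrays and assigned to 1 transcript record, did not read alike. The brightest, at chr15:950227-950286 on the plus strand of rn4, passed in no comparison and is not counted as called. Its differences from WKY were -0.04, 0.27, 0.64 and -0.001 for SHR and SHRSP at 3 weeks and then at 6 weeks, with an SE of 0.59. It spread widely within groups: at 6 weeks it read -3.53, -1.93 and -3.74 in WKY, -3.60, -2.15 and -1.53 in SHR, and -4.05, -3.02 and -2.13 in SHRSP. The second WKY, the second and the third SHR and the third SHRSP arrays are those of the slide with its own scan day, and they were the highest of their groups, by 1.71, 1.76 and 1.40 over the other arrays. Of the 68 genes, 21 lay higher on that slide than on the other arrays in all 3 groups (30.9%, beside 23.9% of all genes), and 2 lay lower (13.8% of all genes).

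Both other Kcnma1 probes were higher than WKY in both strains at both ages. The one at chr15:949056-949115 read -6.27, -6.35 and -6.15 in WKY at 3 weeks, -5.24, -5.04 and -4.82 in SHR, and -5.26, -5.01 and -4.97 in SHRSP. At 6 weeks it read -6.82, -6.67 and -7.10 in WKY, -5.54, -5.44 and -5.43 in SHR, and -4.84, -4.91 and -5.23 in SHRSP. The WKY arrays all lay below those of the other strains. The differences were 1.23 (SE 0.14, adjusted p = 3.07e-05) and 1.18 (adjusted p = 3.24e-05) at 3 weeks, and 1.39 (adjusted p = 6.71e-06) and 1.87 (adjusted p = 3.67e-07) at 6 weeks, with the adjustment over all probes that passed the filter. This probe was also higher in SHRSP than in SHR at 6 weeks by 0.48 (adjusted p = 0.0299), and fell with age in WKY (-0.61, adjusted p = 0.0103) and in SHR (-0.44, adjusted p = 0.0266). The third probe, at chr15:323124-323183, gave 0.86 (SE 0.17, adjusted p = 0.00298), 1.01 (adjusted p = 0.000664), 1.13 (adjusted p = 0.000258) and 1.12 (adjusted p = 0.000281) in the same order. Fits without 1 array or with slide as a block were not run for these dimmer probes, and why the brightest probe differed from them was not tested.

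**Figure D3:**
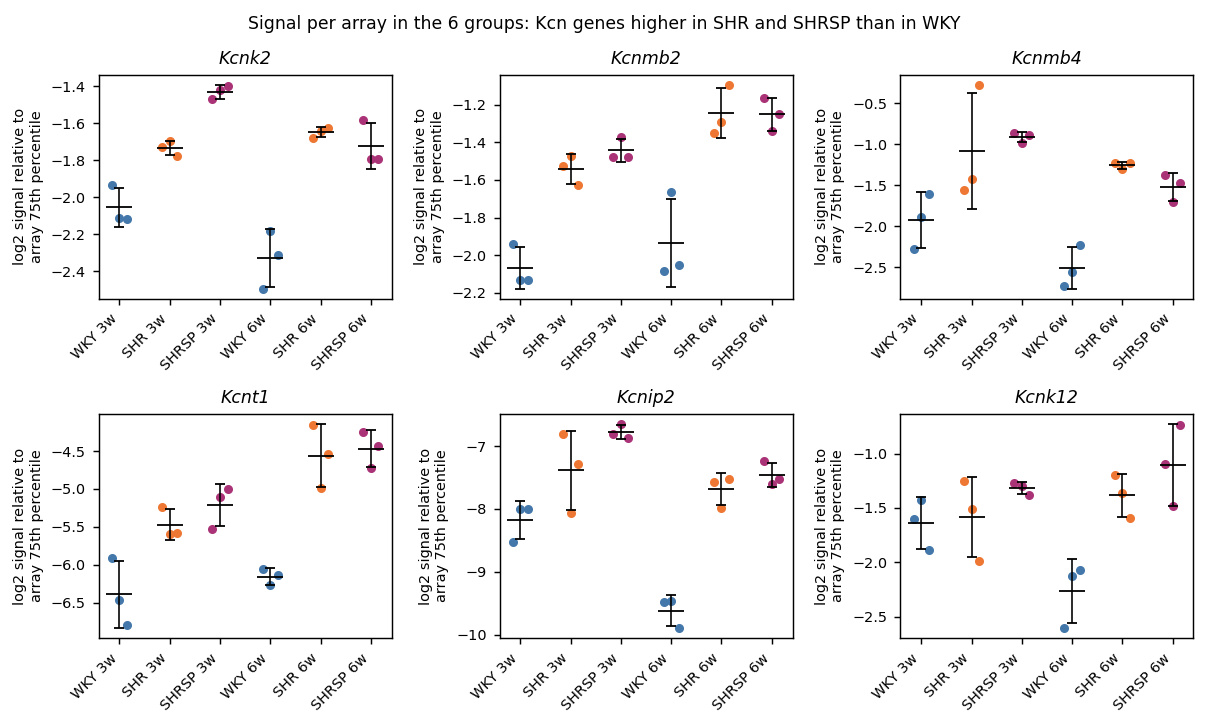
Log2 signal relative to the array's 75th percentile (y axis) on each array (points) in the 6 groups for Kcnk2, Kcnmb2, Kcnmb4, Kcnt1, Kcnip2 and Kcnk12; bars are group means with 1 SD, n = 3. The first 5 genes were called higher than WKY in both strains at both ages, and Kcnk12 at 6 weeks. Kcnip2 passed the filter only through groups where it was high, and the Kcnk2 calls belong to its brightest probe.

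Voltage-gated genes were the largest class. Of 39 names, 28 were tested and 18 were called in at least 1 comparison of 2 groups, beside 63.0% of all genes. Against WKY, 5 were higher and 1 lower in SHR at 3 weeks, and 3 higher and 4 lower in SHRSP. At 6 weeks the counts were 4 and 3 in SHR and 1 and 3 in SHRSP. In that order, 9.02%, 14.8%, 16.2% and 11.1% of all genes were higher and 9.2%, 11.4%, 13% and 12.8% lower. With age 3 rose and 6 fell in SHR, 3 rose and 9 fell in SHRSP, and 1 rose and 3 fell in WKY. Of all genes, 15.1%, 10.5% and 5.15% rose and 14.1%, 18.5% and 7.16% fell in that order. Calls ran in both directions in the class and over all genes, and these counts are read no further.

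Kcnh2, the pore gene of the erg channel that repolarises excitable cells, rose with age in all 3 strains. WKY read -1.18, -1.09 and -1.46 at 3 weeks and 0.09, 0.08 and -0.20 at 6 weeks. SHR went from -0.91, -1.33 and -1.64 to 0.13, 0.20 and -0.02. SHRSP went from -2.47, -2.42 and -2.72 to -0.31, 0.35 and 0.32. At 3 weeks all SHRSP arrays lay below all others, while at 6 weeks the 3 strains overlapped. The rises were 1.24 (SE 0.19, adjusted p = 0.000983) in WKY, 1.40 (adjusted p = 0.000142) in SHR and 2.66 (adjusted p = 4.72e-07, 6.32-fold) in SHRSP. SHRSP at 3 weeks was lower than WKY at a difference of -1.29 (adjusted p = 0.000238) and than SHR at a difference of -1.25 (adjusted p = 0.00125). The age change in SHRSP exceeded that in WKY by 1.42 (SE 0.27, adjusted p = 0.00533) and that in SHR by 1.26 (adjusted p = 0.00855). The other probe of Kcnh2 gave -1.12 and -1.06 for the SHRSP differences from WKY and SHR at 3 weeks and 2.11 for the rise in SHRSP, all of which passed, and 0.73 for the rise in WKY, which did not.

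Kcnq1, the pore gene of a slow voltage-gated channel, was high in SHRSP at 6 weeks: -0.16, 0.06 and -0.57. Its readings were -2.25, -2.76 and -2.50 in WKY and -1.40, -1.79 and -1.71 in SHR at that age, so the strains did not overlap. SHRSP exceeded WKY by 2.28 (SE 0.16, adjusted p = 2.76e-07, 4.85-fold) and SHR by 1.41 (adjusted p = 6.03e-05), and SHR exceeded WKY by 0.87 (adjusted p = 0.00112). At 3 weeks WKY read -2.58, -2.61 and -2.56, SHR -1.57, -1.66 and -1.89, and SHRSP -2.37, -2.41 and -2.19. SHR was already higher than WKY at that age by 0.87 (adjusted p = 0.00165), while the SHRSP difference of 0.26 did not pass. Kcnq1 thus rose in SHRSP by 2.10 (adjusted p = 7.24e-07), with changes of 0.08 in WKY and 0.07 in SHR that did not pass. The age change in SHRSP exceeded those in WKY and SHR by 2.02 each (SE 0.23, adjusted p = 0.000158 and 6.03e-05). The dimmer Kcnq1 probe ran the same way with smaller values: 0.51 for SHRSP against WKY at 6 weeks and 0.44 for the rise in SHRSP (SE 0.14), both of which passed. It gave 0.11 and 0.23 for SHR against WKY at 3 and 6 weeks and 0.28 for SHRSP against SHR at 6 weeks (adjusted p = 0.212), and did not pass there. Nor did its differences between the age changes pass: 0.42 against WKY (adjusted p = 0.211) and 0.30 against SHR (adjusted p = 0.334), with an SE of 0.20. Kcne1, which codes for a partner subunit of Kcnq1, was dim, on 11 arrays well above background, and passed in no comparison.

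Kcnc2, a fast voltage-gated channel gene, was low in SHRSP at 6 weeks. It read -3.19, -2.63 and -2.41 there, against -1.42, -1.05 and -1.32 in WKY and -1.67, -0.95 and -1.36 in SHR. At 3 weeks the strains overlapped between -1.81 and -1.04. SHRSP lay below WKY at a difference of -1.48 (SE 0.23, adjusted p = 0.000275) and below SHR at a difference of -1.42 (adjusted p = 0.000819), and the fall in SHRSP with age was -1.14 (adjusted p = 0.00187). Its age change differed from that of WKY by -1.34 (adjusted p = 0.018) and from that of SHR by -1.31 (adjusted p = 0.0173). A second Kcnc2 probe, which the design assigns to another transcript record, gave -1.49 against WKY, -0.99 against SHR and -1.61 with age, all of which passed. It also gave -0.61 for SHR against WKY at 3 weeks, which passed, where the brightest probe gave -0.04.

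Of the modifier subunits of the Kcng family, Kcng1 and Kcng3 were called alike against WKY, higher in SHR at both ages and in SHRSP at 3 weeks, and both fell with age in SHRSP, while Kcng2 was lower. Kcng3 read -6.65, -6.64 and -6.04 in WKY at 3 weeks, -5.65, -5.53 and -5.39 in SHR, and -5.10, -4.96 and -4.59 in SHRSP. The 3 strains did not overlap, and the differences from WKY were 0.93 (SE 0.22, adjusted p = 0.00824) and 1.56 (adjusted p = 0.000138). At 6 weeks SHRSP read -5.98, -6.78 and -6.21, overlapping WKY at -6.31, -5.82 and -5.91, and SHR read -5.46, -5.43 and -5.13. SHR was higher than WKY by 0.68 (adjusted p = 0.0311), and not without the second or the third SHR array or the first WKY array at 6 weeks (0.53 to 0.72). Kcng3 fell in SHRSP with age at a difference of -1.44 (adjusted p = 0.000241), and this change differed from that in WKY by -1.87 (adjusted p = 0.00206) and from that in SHR by -1.62 (adjusted p = 0.00385).

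Kcng1 was higher than WKY in SHR at 3 weeks by 0.42 (adjusted p = 0.0194), in SHRSP at 3 weeks by 0.61 (adjusted p = 0.00126) and in SHR at 6 weeks by 0.78 (adjusted p = 0.000191). The first of these was called in 14 of 18 fits without 1 array. SHRSP at 6 weeks read -4.17, -4.32 and -4.07 and overlapped WKY at -4.58, -4.27 and -4.30. Kcng1 fell in SHRSP with age at a difference of -0.89 (adjusted p = 6.04e-05), and at a difference of -0.77 more than in SHR (adjusted p = 0.00699). The other Kcng1 probe rose with age in SHR by 0.54 (adjusted p = 0.0303), where the brightest gave -0.12. Kcng2 ran the other way. It read 1.19, 1.37 and 1.28 in WKY at 3 weeks and 0.60, 0.51 and 0.28 in SHRSP, and 0.93, 1.26 and 1.03 in WKY at 6 weeks beside 0.50, 0.44 and 0.51 in SHRSP. The difference of SHRSP from WKY was -0.82 (SE 0.12, adjusted p = 0.000152) at 3 weeks and -0.59 (adjusted p = 0.00183) at 6 weeks, and SHR was lower at 6 weeks at a difference of -0.49 (adjusted p = 0.00554).

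**Figure D4:**
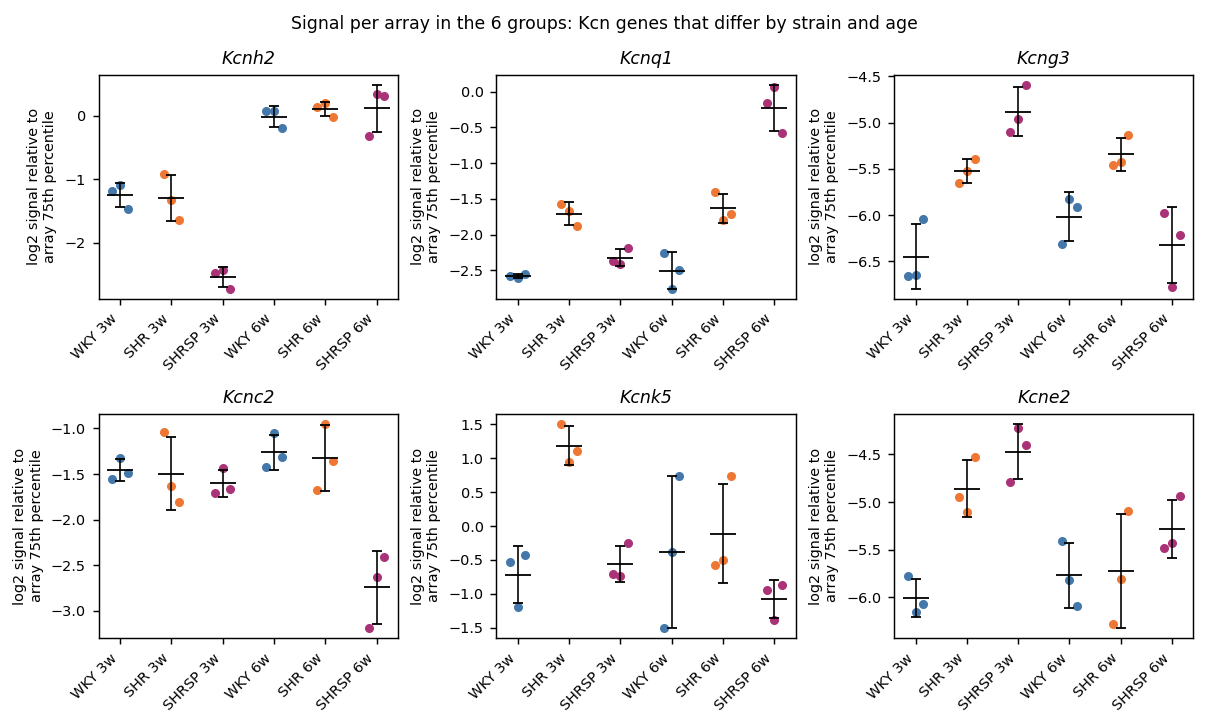
Log2 signal relative to the array's 75th percentile (y axis) on each array (points) in the 6 groups for Kcnh2, Kcnq1, Kcng3, Kcnc2, Kcnk5 and Kcne2; bars are group means with 1 SD, n = 3. Kcnh2 is lowest in SHRSP at 3 weeks, Kcnq1 is highest and Kcnc2 lowest in SHRSP at 6 weeks.

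Kcns3 and Kcns2 are modifier genes too. Kcns3 rose in SHR with age by 0.69 (adjusted p = 0.00239) and fell in SHRSP at a difference of -0.47 (adjusted p = 0.0205, in 15 of 18 fits), the latter not with slide as a block (adjusted p = 0.062). Its age change in SHRSP differed from that in SHR by -1.16 (adjusted p = 0.00173). The SHR difference from WKY at 6 weeks, 0.51 (adjusted p = 0.0135), became 0.31 without the third SHR array and did not pass. Kcns2 fell in SHRSP at a difference of -0.96 (adjusted p = 0.023, in 14 of 18 fits).

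Falls with age were seen in genes of the Kcna and Kcnd families. Kcna5, a delayed rectifier gene, fell in WKY at a difference of -0.69 (adjusted p = 0.0405, in 12 of 18 fits), in SHR at -1.30 (adjusted p = 0.00039) and in SHRSP at -1.14 (adjusted p = 0.000892). It read -5.69, -5.31 and -5.10 in SHR at 3 weeks and -6.68, -6.88 and -6.44 at 6 weeks, with no overlap. With slide as a block the fall in WKY did not pass (adjusted p = 0.06). Kcnd1 fell in WKY (-0.70, in 15 of 18 fits), in SHR (-0.92) and in SHRSP (-0.50, in 14 of 18 fits and not with slide as a block, adjusted p = 0.13), while Kcnd2 rose in SHRSP by 0.38 (adjusted p = 0.0163, in 16 of 18 fits). Kcnd2 was lower than WKY in SHRSP at 3 weeks at a difference of -0.60 (adjusted p = 0.00102).

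Kcna1, Kcna5 and Kcna6 lie next to one another on chromosome 4 of rn4, with probes between positions 162896330 and 163120486 on the minus strand, and did not move alike. Kcna1 fell in SHR with age at a difference of -0.79 (adjusted p = 0.0177, in 15 of 18 fits, and 0.058 with slide as a block), and its age change in SHRSP differed from that in SHR by 1.16 (adjusted p = 0.0309, in 12 of 18 fits). Kcna6 rose in SHR by 1.03 (SE 0.32, adjusted p = 0.0276, in 14 of 18 fits), from -2.36, -2.96 and -2.88 to -2.26, -1.76 and -1.10. The higher pair at 6 weeks lay on the slide with its own scan day, and with slide as a block the rise was 0.54 (adjusted p = 0.077). The other Kcna6 probe gave -0.30 and did not pass. Kcna4, a gene of fast-inactivating channels, was well above background on 1 array and was not tested.

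Kcnq5l was low in the hypertensive strains at 6 weeks. It read -6.39, -7.08 and -6.60 in WKY at that age, and lay below the background mark on every SHR and SHRSP array. It passed the filter through WKY at both ages and SHR at 3 weeks, the groups where it was high, so these differences are given as values. WKY was at least 1.70-fold higher than SHR (adjusted p = 0.000671) and at least 2.45-fold higher than SHRSP (adjusted p = 0.000121). SHRSP was lower at 3 weeks at a difference of -1.01 (adjusted p = 0.0322, in 13 of 18 fits), which did not pass with slide as a block (adjusted p = 0.07). Of the other genes, Kcnh6 was higher than WKY at 3 weeks by 0.53 in SHR and 0.35 in SHRSP, Kcnh1 was lower in SHR at 3 weeks (-0.71), and Kcnc4 was lower in SHRSP than in SHR at 6 weeks (-0.52), the last pair in 15 of 18 fits each. Kcnb2, Kcnd3, Kcnh3, Kcnh4, Kcnh5, Kcnq3, Kcna7 and Kcnv2 passed in no comparison by their brightest probe, and another Kcna7 probe, on 15 arrays, gave 0.85 with age in SHR (adjusted p = 0.0495). Kcnq3 read -4.07, -3.85 and -2.14 in SHR at 3 weeks, the last on the array with high nerve markers.

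Auxiliary genes were 10 tested of 13, with 6 called, beside 63.0% of all genes. Kcnip2 codes for a calcium-binding partner of fast-inactivating channels. It was dim, and well above background on 10 arrays. In WKY these were 1 array at 3 weeks and 0 at 6 weeks, in SHR 3 and 1, and in SHRSP 3 and 2. Its readings were -8.52, -8.00 and -7.99 in WKY at 3 weeks, -6.81, -8.06 and -7.28 in SHR, and -6.81, -6.65 and -6.87 in SHRSP. At 6 weeks they were -9.49, -9.47 and -9.90 in WKY, -7.57, -7.98 and -7.52 in SHR, and -7.24, -7.60 and -7.52 in SHRSP. Since it passed the filter only through SHR and SHRSP at 3 weeks, where it was high, its differences from WKY are given as values and support nothing. At 3 weeks SHRSP lay above WKY by 1.40 (SE 0.26, adjusted p = 0.00104) without overlap. SHR overlapped WKY at 3 weeks, and its difference of 0.79 (adjusted p = 0.0452) did not pass with slide as a block (adjusted p = 0.078). At 6 weeks SHR was at least 1.06-fold and SHRSP at least 1.25-fold higher than WKY (adjusted p = 7.81e-05 and 2.75e-05). The call in SHR at 3 weeks was made in 5 of 18 fits without 1 array. The probe lies on chr1:251011241-251011585 on the minus strand of rn4, has no stop codon in any frame, and is shown since this gene rests on 1 dim probe:

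Kcnip2: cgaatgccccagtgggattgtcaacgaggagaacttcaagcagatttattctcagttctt

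Kcne2, a single-span subunit, was higher than WKY at 3 weeks in both strains. WKY read -5.78, -6.16 and -6.08, SHR -4.94, -5.11 and -4.53, and SHRSP -4.79, -4.22 and -4.40. All arrays of both strains lay above WKY, by 1.15 (SE 0.28, adjusted p = 0.00937) and 1.54 (adjusted p = 0.000915). Without the third SHR array, the SHR difference was 0.98 and did not pass (adjusted p = 0.0503). At 6 weeks the strains overlapped, and Kcne2 fell with age in SHR (-0.87, arrays overlapping) and in SHRSP (-0.81), calls made in 14 and 13 of 18 fits without 1 array. With slide as a block the fall in SHRSP did not pass (adjusted p = 0.055). Kcne3 was lower than WKY at 6 weeks at a difference of -0.71 (adjusted p = 0.000732) in SHR and -0.52 (adjusted p = 0.00699) in SHRSP. Kcnip3 was dim, on 10 arrays well above background, and passed the filter only through SHRSP at 6 weeks, where it was 0.63 above WKY. At 3 weeks, with 1 of 3 WKY and 2 of 3 SHRSP arrays above background, the difference was 0.47 (16 of 18 fits), and neither value is read as support. Kcnab1 was higher in SHRSP at 6 weeks by 0.69 (adjusted p = 0.00696), and Kcnip1 rose in SHR with age by 0.83 (adjusted p = 0.0129, in 17 of 18 fits).

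**Figure D5:**
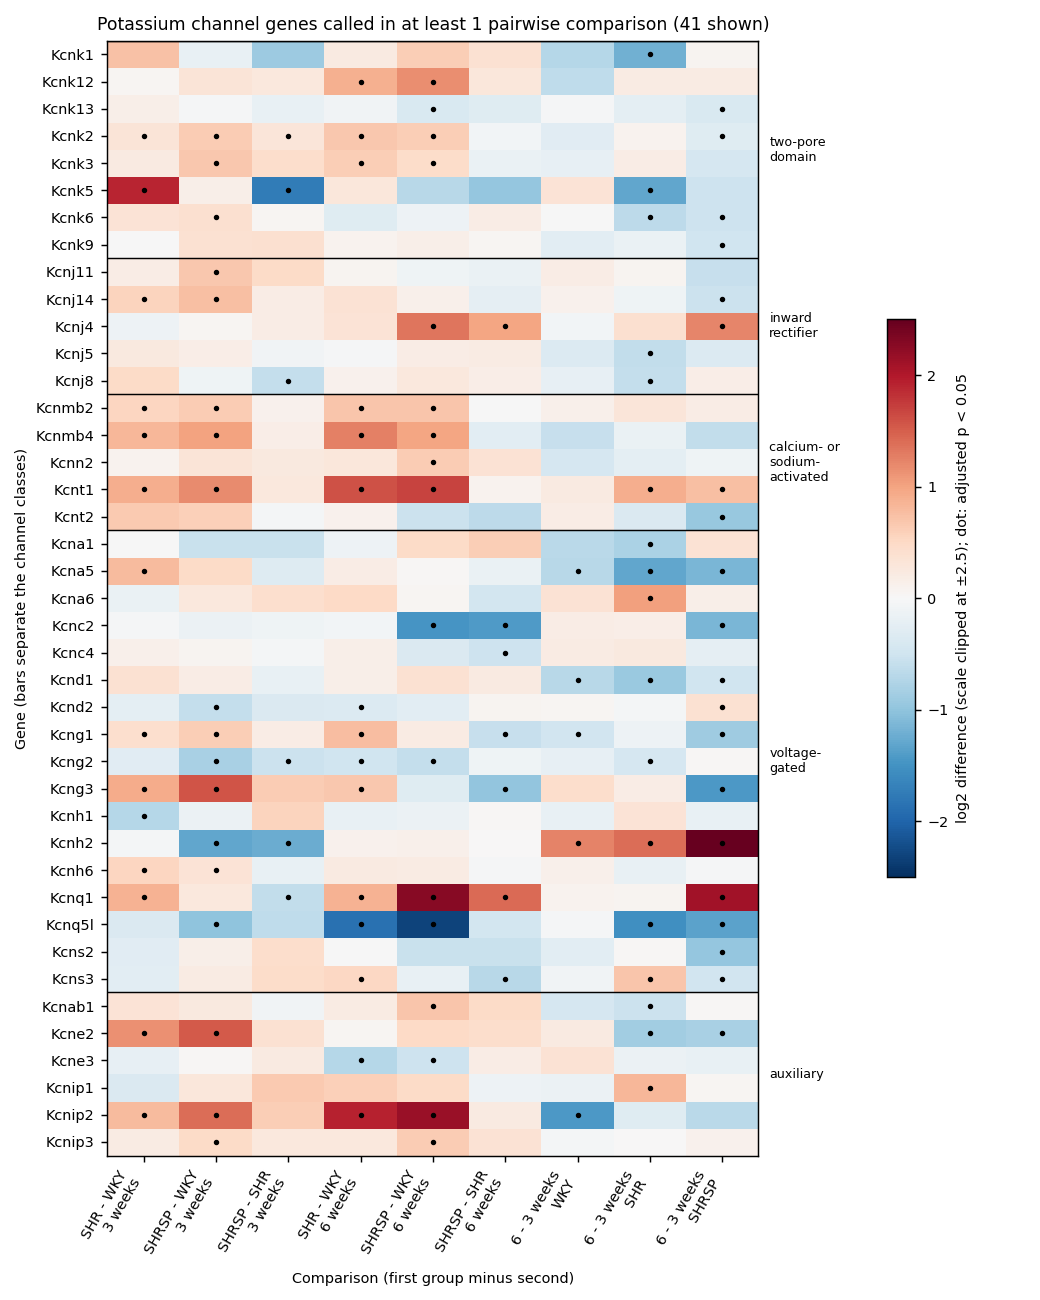
Log2 differences (colour, clipped at ±2.5) of 41 of the 42 genes called in at least 1 of the 9 comparisons, by channel class, with a dot where the adjusted p was under 0.05. Kcnmb2, Kcnmb4, Kcnt1, Kcnk2 and Kcnip2 carry dots in all 4 columns against WKY. Kcnip2 passed the filter only through groups where it was high, and the Kcnk2 calls belong to its brightest probe.

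Comparisons of age changes between strains called 1 gene for SHR against WKY, 5 for SHRSP against WKY and 7 for SHRSP against SHR, where 5.81%, 10.1% and 11.9% of all genes were called. The medians of the 68 were 0.12, -0.19 and -0.33, beside 0.07, -0.08 and -0.17 over all genes. The genes called for SHRSP were Kcnc2, Kcng3, Kcnh2 and Kcnq1 in both comparisons, with Kcnj4 against WKY and Kcna1, Kcng1 and Kcns3 against SHR. These comparisons share the SHRSP arrays.

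Genes that bind potassium channels or move potassium by other routes were read from a list of 49 names, 45 of which were tested. Against WKY, 8 were higher and 5 lower in SHR at 3 weeks, and 9 and 6 in SHRSP. At 6 weeks the counts were 8 and 5 in SHR and 8 and 7 in SHRSP. In that order, 9.02%, 14.8%, 16.2% and 11.1% of all genes were higher and 9.2%, 11.4%, 13% and 12.8% lower. The medians of the 45 were 0.17, 0.12, 0.13 and 0.07, beside -0.01, 0.09, 0.09 and -0.01 over all genes. The 3 genes below were named after their values were seen. Dpp6, an auxiliary subunit of the channels that Kcnip2 also joins, was higher than WKY in all 4: by 0.91 (adjusted p = 0.000853), 1.003 (adjusted p = 0.000278), 1.35 (adjusted p = 2.38e-05) and 1.13 (adjusted p = 9.55e-05). Atp12a, a proton-potassium pump, was lower in all 4, at a difference of -1.49, -1.18, -3.03 and -3.26. Abcc8, the regulatory partner of Kcnj11, was higher in SHR at 3 weeks by 0.45 and in SHRSP at both ages, by 0.52 and 0.67.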

How the data were processed

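Adrenal RNA of 18 samples (6 groups of 3) was measured on one-colour Agilent arrays. The values the authors deposited are processed signal intensity on a linear scale, read with Agilent Feature Extraction 10.5.1.1 per the file headers and the submitters' processing notes. The value table that the authors also deposited gave the same numbers (largest difference 0). Probe positions are rn4, per the file headers, and no annotation of exons or UTRs for that build was used here.

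Intensity was taken as log2 minus each array's 75th percentile. Control spots and outlier spots were left out and repeated spots averaged. A gene was read from its brightest probe and tested if the scanner software called that probe well above background throughout at least 1 group. One model of 6 group means was fitted with limma 3.58.1 in R 4.3.3, with 12 residual and 2.12 prior degrees of freedom, over 20837 genes. There were 9 comparisons of 2 groups and 3 of age changes, with calls where the Benjamini-Hochberg adjusted p was under 0.05. Of the 68 genes, 2 (Kcnj4 and Kcnh4) lack a value on 1 array. Alternatives changed background correction, scaling, filter, probe, block and arrays. If every array of 1 group was below the background mark, a lower bound on the fold is printed: the brighter mean is set against each dim array's own value or its lowest well-measured signal, whichever is higher. The script was tested on simulated data. The labels name replicates as biological but give no animal or culture, so p-values measure the spread between these samples. The number of arrays limits the precision.

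Named with all values were genes called past 2-fold without overlap in a pairwise comparison or alike in all 4 comparisons with WKY; channels known in the adrenal were named whatever their result, and genes with called age-change differences or the extreme call of a subfamily by difference. A few others were added after their values were seen. By name, a few of the tested and counted genes are not reported here. The genes and lists were chosen with earlier results of these data known. Tables and figures used Python 3.11.15, pandas 2.3.3 and matplotlib 3.10.9.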

Additional observations from a re-analysis of the deposited data

Results flagged for a closer look

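Age changes that differed between strains, by a test of the difference itself in limma with Benjamini-Hochberg adjustment over all genes, are given here as values with no explanation. Against WKY, the change from 3 to 6 weeks in SHR was larger by 0.78 for Kcns3. In SHRSP it differed from WKY by -1.34 for Kcnc2, -1.87 for Kcng3, 1.42 for Kcnh2, 1.28 for Kcnj4 and 2.02 for Kcnq1. Against SHR, the change in SHRSP differed by 1.16 for Kcna1, -1.31 for Kcnc2, -0.77 for Kcng1, -1.62 for Kcng3, 1.26 for Kcnh2, 2.02 for Kcnq1 and -1.16 for Kcns3. The calls of Kcnc2, Kcng1, Kcng3, Kcnh2 and Kcnq1, and of Kcns3 against SHR, passed in each of the 18 fits that left out 1 array. These fits read the brightest probe only, and the dimmer Kcnq1 probe passed neither against WKY nor against SHR. The call of Kcns3 in SHR against WKY passed in 11, that of Kcna1 in 12 and that of Kcnj4 in 16.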

How the results depend on the processing

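Over 100 calls of 30 named genes, 2636 recomputed values kept their direction and side of the threshold, 278 kept the direction and did not pass, and 10 changed sign, while 44 of the calls held under all settings. The sign changes were mostly those of other probes. Kcnk2 gave -0.0866 and -0.88 with its other probes and -0.21 with the mean over probes for SHR against WKY at 3 weeks, -0.11 and -0.49 for SHRSP against WKY at 3 weeks, -0.0272 for SHRSP against SHR at 3 weeks, and -0.27 for SHRSP against WKY at 6 weeks. Kcna6 gave -0.30 for age in SHR and Kcng1 0.0664 for age in WKY with another probe. Kcnj4 gave -0.56 for SHRSP against SHR at 6 weeks with outlier spots kept. Why they changed was not tested. Of 35 calls with another passing probe, 20 were called the same way by one and none the opposite way.

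The counts of called genes moved by over 1.5 times as follows. SHRSP against SHR fell from 6 to 3 at 3 weeks with the mean over probes and from 7 to 3 at 6 weeks in the fit of only the groups compared. Age in WKY went from 5 to 1 with normexp background correction, to 2 with only the groups compared and to 8 with slide as a block. Age in SHR fell from 18 to 11 with only the groups compared. The age change of SHR against WKY, 1 gene, became 0 with normexp or with no filter on dim probes, 2 with another percentile, scan day or the replicate block, and 4 with slide as a block; that of SHRSP against WKY went from 5 to 9 with slide as a block. With the replicate block, the 12 counts were 13, 19, 6, 16, 17, 7, 6, 19, 22, 2, 6 and 9, in the order SHR, SHRSP against WKY and SHRSP against SHR at 3 weeks, the same at 6 weeks, age in WKY, SHR and SHRSP, and the 3 age changes. Same-numbered samples deviated together with r from -0.53 to 0.58 (median 0.03), beside a median of 0.005 for different numbers, so the numbers are not taken as a pairing. Arrays of different groups on the same slide deviated together with r from -0.12 to 0.62 (median 0.24, 24 pairs). The main fit has no term for slide, so its p-values do not allow for this. Leaving out 1 array in turn gave 8 to 15, 14 to 20, 2 to 7, 12 to 16, 14 to 18, 5 to 8, 3 to 8, 12 to 22, 13 to 22, 0 to 3, 4 to 6 and 6 to 9 in that order. Genes near the background, such as Kcnip2, Kcnj11, Kcnt2 and Kcnq5l, were well above background on some arrays only, which limits what their differences show.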
